A study of Naumovozyma castellii with 14 samples.

Results

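RMD6 (NCAS_0J00680) is the protein-coding gene of the budding yeast Naumovozyma castellii whose RNA was raised most in cells without Upf1 against wild type. It is 1 of 5599 mRNAs among 8343 distinct annotated features. It was chosen by the fold change of upf1 against WT, so that difference is described here with no test. Strand-specific RNA sequencing was applied to total RNA from 14 cultures in 5 groups, after depletion of ribosomal RNA. All strains were MATalpha ura3-1 ho haploids, grown in rich medium (YPD) at 25 °C to mid-log phase at an OD600 of 0.5. The groups were dcr1 upf1 (strain YAM2943, dcr1 upf1::kanMX6, n = 2), upf1 CHX (YAM2890, upf1::kanMX6, with cycloheximide, n = 2), upf1 (YAM2890 untreated, n = 4), WT CHX (YAM2478 with cycloheximide, n = 2) and WT (YAM2478 untreated, n = 4). Cycloheximide (CHX), which stops translation elongation, was given at 100 µg/mL for 15 min. Each genotype was a single strain. The labels number the cultures but do not say more about their origin, so p-values measure the spread between these libraries, which may be technical.

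Nonsense-mediated decay (NMD) is the cytoplasmic pathway that degrades mRNAs on which translation ends too early or in an unfavourable context, and the helicase Upf1 is its central factor. Because recognition needs a translating ribosome, cycloheximide also interrupts NMD. In Saccharomyces cerevisiae RMD6 is known as a gene required for sporulation, the formation of spores after meiosis in starved diploids, and its name stands for a requirement for meiotic nuclear division. Dcr1 is the Dicer ribonuclease of RNA interference, a pathway that N. castellii retains and S. cerevisiae lacks.

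RMD6 lies on chromosome 10, from position 104201 to 104785 on the + strand, in the coordinates of the deposited table, whose build was not named in the sources used. The feature spans 585 nucleotides, or 195 codons with the stop codon, and 54 of the 221 mRNAs of the chromosome lie to its left. Its values are densities, that is normalised reads per nucleotide, so levels can be compared between genes as well as between libraries. Recovered reads in features numbered 7895089 to 22437334 per library. NAM7, the gene for Upf1, had 0 reads in each of the 8 libraries labelled upf1 or dcr1 upf1, with and without CHX. NAM7 density was 1.20 and 1.17 in WT CHX and 0.567, 0.443, 0.482 and 0.595 in WT, so the labels of the upf1 deletion held in every library. The dcr1 deletion was not checked.

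Without Upf1, RMD6 was among the more abundant mRNAs of the cell, and in wild type it was an mRNA of below-median level. RMD6 density was 3.45, 3.37, 5.16 and 4.90 in the 4 upf1 libraries, against 0.191, 0.162, 0.245 and 0.216 in the 4 WT libraries. The groups did not overlap, and the gap between them was wider than the range within either. The means were 4.22 ± 0.940 in upf1 and 0.203 ± 0.0351 in WT (SD, n = 4 each), a 20.7-fold difference. The fitted log2 fold change was 4.23 with an SE of 0.15, the first in rank among 5446 mRNAs tested and the value on which RMD6 was chosen. These densities rest on 2813, 2948, 2310 and 1805 reads in upf1 and on 106, 92, 107 and 105 reads in WT. Counting error alone was therefore 1.84% to 2.35% per upf1 library and 9.67% to 10.4% per WT library, against a spread between libraries of 22.3% in upf1 and 17.3% in WT (coefficient of variation).

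Ordered by density, RMD6 was rank 355, 360, 288 and 298 of 5599 mRNAs in the upf1 libraries. In the WT libraries it was rank 3564, 3531, 2805 and 3336. It thus exceeded 93.6% to 94.9% of mRNAs in upf1 and 36.3% to 49.9% of them in WT. The ranks do not depend on how libraries are scaled to each other.

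Among the mRNAs just below RMD6 in the same order, NCAS_0J00100 had a log2 fold change of 3.81 in upf1 against WT. TAH1, a gene for an Hsp90 cochaperone component in S. cerevisiae, had 3.68, and SLO1, for a protein of vesicle transport in S. cerevisiae, had 3.67. Mean densities were 1.45, 3.10 and 4.34 in upf1 for these 3 genes and 0.0842, 0.223 and 0.325 in WT. RMD6 thus headed the order by a margin wider than those between the next 3, and SLO1 was close to it in level in upf1.

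In the other 3 groups RMD6 lay between these ends or above them. RMD6 density was 5.88 and 5.36 in upf1 CHX, 3.02 and 3.29 in dcr1 upf1, and 2.23 in both WT CHX libraries. From low to high the group means were 0.203 ± 0.0351 in WT, 2.23 ± 0.00156 in WT CHX, 3.16 ± 0.188 in dcr1 upf1, 4.22 ± 0.940 in upf1 and 5.62 ± 0.367 in upf1 CHX (SD, n = 4 in WT and upf1, n = 2 in the others). No 2 groups overlapped, but the highest dcr1 upf1 library (3.29) lay next to the lowest upf1 library (3.37). In ranks, RMD6 was 359 in both dcr1 upf1 libraries, 370 and 363 in upf1 CHX, and 924 and 949 in WT CHX.

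The order of the upper groups depends on the scaling, so the same values are given on scales that do not use it. The deposited values are scaled to the small nucleolar RNAs: size factors recomputed over these RNAs came within 0.0315 (log2) of the deposited ones in every library, and those over mRNAs within 0.899. Under the deposited scaling the median mRNA moved by 1.35 in WT CHX against WT and by 0.86 in upf1 CHX against upf1 on the log2 scale. It moved by 0.20 in upf1 against WT, −0.13 in upf1 CHX against WT CHX and −0.20 in dcr1 upf1 against upf1. Scaled instead over the mRNAs, which sets these shifts near 0, RMD6 averaged 4.06 ± 0.0127 in dcr1 upf1, 3.17 ± 0.0367 in upf1 CHX, 4.63 ± 0.526 in upf1, 1.20 ± 0.0267 in WT CHX and 0.284 ± 0.0505 in WT. On that scale upf1 libraries were highest and the upf1 CHX libraries lay below both untreated groups without Upf1.

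Another scale is internal to each library: the ratio of RMD6 to TFC8, its right-hand neighbour on the same strand, which encodes a subunit of the RNA polymerase III factor TFIIIC in S. cerevisiae. RMD6 density over TFC8 density was 19.7 and 19.8 in dcr1 upf1, and 11.6 and 13.7 in upf1 CHX. It was 19.7, 19.8, 24.3 and 26.1 in upf1. It was 4.77 and 4.08 in WT CHX, and 1.26, 1.37, 2.01 and 1.27 in WT. TFC8 itself rose with CHX by more than the median mRNA, so the ratio lowers the change of RMD6 with CHX. Its log2 fold change was 1.72 in WT CHX against WT (median mRNA 1.35) and 1.18 in upf1 CHX against upf1 (median mRNA 0.86). The step between WT and the groups without Upf1 is thus seen on all 3 scales, with upf1 over WT at 20.7-fold in deposited density, 16.3-fold under mRNA-ratio scaling and 15.2-fold in the ratio to TFC8. Since these are bulk cultures, a larger share of cells with the RNA and more RNA per cell cannot be told apart.

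**Figure D1:**
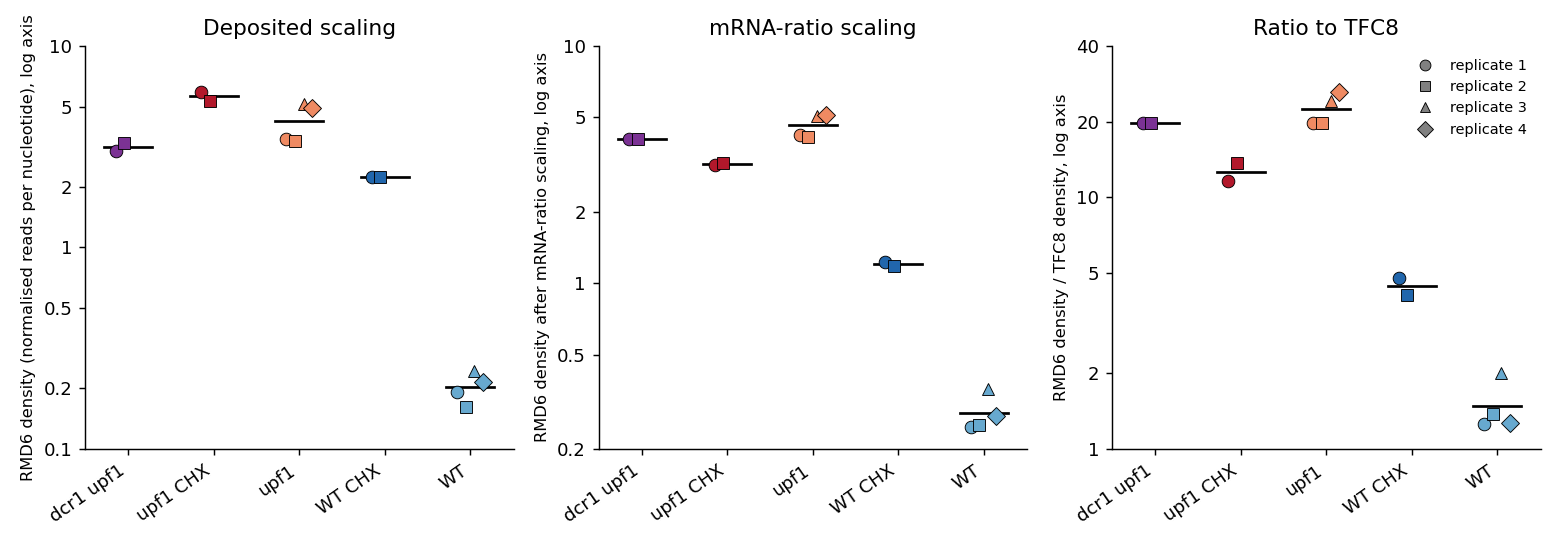
RMD6 in each of 14 libraries by group, as deposited density (left), density after mRNA-ratio scaling (middle) and ratio to the density of TFC8 (right), each on a log axis, with a bar at the group mean and 1 symbol per replicate number. WT libraries lie lowest on every scale (0.162 to 0.245 in density) and WT CHX next, while upf1 CHX is above upf1 on the left (5.36 to 5.88 against 3.37 to 5.16) and below it in the other panels.

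Libraries of upf1 and WT with numbers 3 and 4 lay above those with numbers 1 and 2 in both groups. For numbers 1 and 2 RMD6 density averaged 3.41 in upf1 and 0.177 in WT, a 19.3-fold difference. For numbers 3 and 4 it averaged 5.03 in upf1 and 0.230 in WT, a 21.8-fold difference. Under mRNA-ratio scaling the differences were 16.7-fold and 16.1-fold. RMD6 was chosen on these same libraries, so the values are a description. The CHX and dcr1 upf1 groups have numbers 1 and 2 only.

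With CHX in both strains, RMD6 was again higher without Upf1, and these 4 libraries took no part in choosing it. RMD6 density was 5.88 and 5.36 in upf1 CHX, against 2.23 and 2.23 in WT CHX, a 2.52-fold difference with no overlap. The log2 fold change was 1.32 with an SE of 0.21 (limma on log2(density + 0.02), Benjamini-Hochberg adjusted p = 0.000672 over 7518 features), and RMD6 was the 18th mRNA in rank. Of mRNAs 3.54% were called higher and 1.21% lower at an adjusted p under 0.05 in this comparison. The value was 1.38 under mRNA-ratio scaling. The ratio of RMD6 to TFC8 was 2.86-fold higher in upf1 CHX than in WT CHX (geometric means), a 2-against-2 comparison in which the exact permutation test (2-sided) cannot go below its value here, p = 0.333.

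CHX alone also raised RMD6 in wild type. RMD6 density was 2.23 and 2.23 in WT CHX, against 0.191, 0.162, 0.245 and 0.216 in WT, with no overlap. The log2 fold change was 3.34 with an SE of 0.18 (limma, adjusted p = 1.64e-10), rank 21 among mRNAs. In this comparison 98.1% of mRNAs were called higher and 0.0184% lower, so nearly all mRNAs shared this call. Less the shift of the median mRNA the value was 1.99, and under mRNA-ratio scaling it was 2.02 (adjusted p = 1.92e-07), with 2656 features higher and 1529 lower in place of 7075 and 11. The WT libraries were also used in choosing RMD6, so this test is not wholly independent of the choice. The ratio to TFC8 was 3.05-fold higher in WT CHX than in WT, though TFC8 itself rose with CHX. Every WT CHX library lay above every WT library. The exact permutation test over 15 splits was 2-sided by doubling the smaller tail, and in that form it cannot go below its value here, p = 0.133.

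In cells without Upf1 the change with CHX was small, and its direction depended on the scaling. RMD6 density was 5.88 and 5.36 in upf1 CHX, against 3.45, 3.37, 5.16 and 4.90 in upf1, a 1.33-fold difference. The log2 fold change was 0.44 with an SE of 0.18 (limma, adjusted p = 0.0309), while it was −0.54 under mRNA-ratio scaling (adjusted p = 0.00493) and −0.17 after quantile normalization (adjusted p = 0.374). Under the deposited scaling 90.8% of mRNAs were called higher and 0.11% lower, and RMD6 ranked 4728 of 5446, 0.43 below the median mRNA. With the mRNA-ratio scaling 1382 features were called higher and 1900 lower, in place of 6342 and 18. Leaving out upf1 replicate 1 or 2, or either upf1 CHX library, also ended the call of a higher value, at log2 fold changes of 0.34 to 0.50. With the replicate block the value was 0.66 (adjusted p = 1.28e-05), and with replicates 1 and 2 alone it was 0.72. The upf1 libraries were also used in choosing RMD6, so this test is not independent of the choice.

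Loss of Dcr1 on top of Upf1 gave no called change of RMD6. RMD6 density was 3.02 and 3.29 in dcr1 upf1, against 3.45, 3.37, 5.16 and 4.90 in upf1. The log2 fold change was −0.39 with an SE of 0.18 (limma, adjusted p = 0.395, unadjusted p = 0.0424), and −0.18 under mRNA-ratio scaling. Both dcr1 upf1 libraries were below the 4 upf1 libraries, but close to upf1 replicates 1 and 2, and with replicates 1 and 2 alone the value was −0.11. In this comparison 0.239% of mRNAs were called higher and 0.11% lower. Set against WT, dcr1 upf1 was 15.5-fold higher in RMD6 density (log2 fold change 3.84), again the first in rank among mRNAs. The upf1 libraries and the WT libraries were both used in choosing RMD6, so the test against upf1 is not independent of the choice and the difference from WT is given with no test.

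The chromosomal surroundings were taken as the 5 mRNAs on each side and every other annotated feature between the outermost of them, from 95335 to 113463 on chromosome 10. This stretch holds 10 mRNAs besides RMD6, 6 cryptic unstable transcripts (CUTs), 1 Xrn1-sensitive unstable transcript (XUT) and 1 stable unannotated transcript (SUT), of which 15 reached a mean density of 0.02 and were tested. From left to right the mRNAs are NCAS_0J00630 (− strand), NCAS_0J00640 (−), LSP1 (+), AEP3 (−), SYM1 (−), RMD6 (+), TFC8 (+), CHL1 (−), NCAS_0J00710 (+), CIP1 (+) and MRPS16 (−). In S. cerevisiae LSP1 encodes an eisosome component, AEP3 and SYM1 mitochondrial proteins, CHL1 a helicase of sister chromatid cohesion, CIP1 an inhibitor of cyclin-dependent kinase and MRPS16 a mitochondrial ribosomal protein. SYM1 and RMD6 point away from each other with 621 bases between them, and TFC8 follows RMD6 on the same strand after 196 bases.

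One annotated transcript overlaps RMD6 on the opposite strand. CUT0339, from 104481 to 104850 on the − strand, covers 305 bases of RMD6, or 52.1% of it. CUT0339 had 3 and 6 reads in dcr1 upf1, 6 and 8 in upf1 CHX, 4, 6, 7 and 2 in upf1, 3 and 3 in WT CHX, and 0, 2, 4 and 2 in WT. It was near the limit of detection in every library, with a mean density of 0.0106, and was not tested. RMD6 reads outnumbered CUT0339 reads in every library, also in WT.

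Upstream of RMD6 the nearest transcript on its own strand is CUT0338, from 102944 to 103707, which ends 493 bases before RMD6 starts. CUT0338 density was 0.0131, 0.0149, 0.0273 and 0.00624 in upf1, against 0.0138, 0.00675, 0.0193 and 0.0252 in WT, and the groups overlapped. It was 0.0233 and 0.0209 in upf1 CHX, against 0.0145 and 0.0137 in WT CHX. With a mean density of 0.0155 it was below the level required for a test. The other non-coding features within 5 kb are CUT0337 and XUT0984, both on the + strand, which end 4689 and 4735 bases to the left of RMD6.

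RMD6 was chosen as the mRNA with the highest value in upf1 against WT, so every neighbouring mRNA lay below it by that choice. The tested neighbours ran from −0.38 to 1.42 in log2 fold change, beside 4.23 for RMD6. In upf1 against WT 7 of 15 neighbours were called higher and 1 lower, beside 40.5% higher and 0.585% lower over all features. Among the 9 tested mRNAs 6 were higher and 1 lower, beside 36.2% and 0.661% of all mRNAs. Their median log2 fold change was 0.47, and the highest was 1.42, for NCAS_0J00710. Under mRNA-ratio scaling 3 neighbours were higher and 1 lower, with 2250 features higher and 1791 lower in place of 3042 and 44. After quantile normalization 2 neighbours were higher and 1 lower, with 1575 features higher and 2598 lower.

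NCAS_0J00710 density was 0.188, 0.177, 0.223 and 0.148 in upf1, against 0.0733, 0.0595, 0.0441 and 0.0481 in WT (limma, adjusted p = 1.32e-07). NCAS_0J00640 density was 0.176, 0.134, 0.211 and 0.200 in upf1, against 0.0683, 0.0601, 0.0649 and 0.0661 in WT, with a log2 fold change of 1.23 (limma, adjusted p = 5.51e-07). For both genes the groups did not overlap, and both calls remained under mRNA-ratio scaling and after quantile normalization. CHL1 had a log2 fold change of 0.69 (adjusted p = 0.000284), which was lost after quantile normalization (0.09).

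The mRNAs that flank RMD6 directly changed little. TFC8 density was 0.175, 0.171, 0.212 and 0.188 in upf1, against 0.151, 0.118, 0.122 and 0.170 in WT, with a log2 fold change of 0.37 (limma, adjusted p = 0.0252) that became 0.09 under mRNA-ratio scaling and −0.14 after quantile normalization. SYM1 density was 0.0286, 0.0363, 0.0416 and 0.0431 in upf1, against 0.0185, 0.0263, 0.00853 and 0.0307 in WT, with a log2 fold change of 0.51 (adjusted p = 0.0316) that became 0.36 and −0.11 on the same 2 scalings. TFC8 came close to overlapping between the groups and SYM1 overlapped, and neither call was kept on these scalings. AEP3 was at 0.47 (adjusted p = 0.0051; 0.19 and −0.09 on these scalings, not called) and LSP1 at 0.10 (adjusted p = 0.578). NCAS_0J00630 fell by 0.38 (adjusted p = 0.0134), and MRPS16 was at 0.28 (adjusted p = 0.115).

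Of the 6 tested non-coding neighbours 1 was called higher and 0 lower in upf1 against WT. Over all features 40.5% were called higher and 0.585% lower, and of mRNAs 36.2% and 0.661%. CUT0337 density was 0.153, 0.116, 0.0728 and 0.0590 in upf1, against 0.0523, 0.0511, 0.0538 and 0.0521 in WT, with a log2 fold change of 0.66 (limma, adjusted p = 0.0109; 0.44 under mRNA-ratio scaling and 0.03 after quantile normalization, not called). XUT0984, which overlaps CUT0337 on the same strand, was at 0.48 (adjusted p = 0.0503). XUT0984 was called higher when replicate 1 of WT was left out (0.54), or replicate 3 (0.62) or 4 (0.60) of upf1. It was also called higher with the replicate block (0.48), with replicates 1 and 2 alone (0.72) and with voom on recovered reads (0.88). SUT043 was called higher without upf1 replicate 3 (0.57) and with replicates 1 and 2 alone (0.53). Neither XUT0984 nor SUT043 was called under mRNA-ratio scaling or after quantile normalization, with all libraries in the fit. In both CUT0337 and XUT0984, upf1 replicates 1 and 2 were above replicates 3 and 4, the reverse of what was seen for RMD6.

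**Figure D2:**
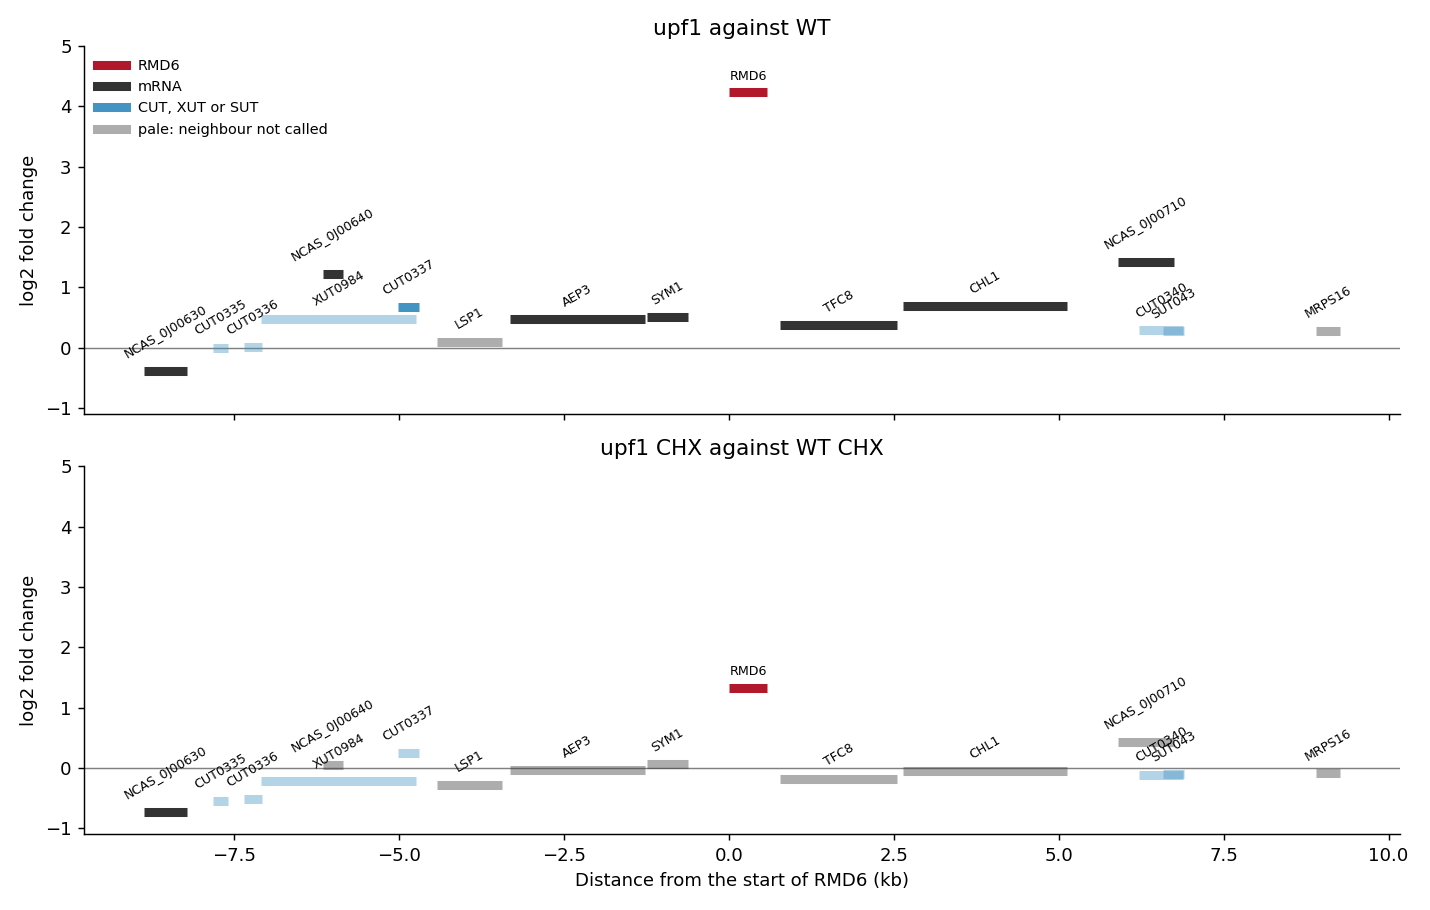
Log2 fold change of RMD6 and its tested neighbours, each drawn over its own span by distance from the start of RMD6 in kb, for upf1 against WT (top) and upf1 CHX against WT CHX (bottom), with neighbours not called drawn pale. RMD6 is at 4.23 at the top, where it was chosen as the highest mRNA, and at 1.32 at the bottom. No neighbour exceeds 1.42 at the top or 0.43 at the bottom. Under other scalings some neighbour calls at the top are lost (TFC8, SYM1, AEP3, CUT0337 and, after quantile normalization, CHL1), and TFC8, SYM1 and AEP3 fall below 0 after quantile normalization.

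With CHX in both strains 0 neighbours were called higher in limma and 1 was called lower, beside 4.27% higher and 0.984% lower over all features. The neighbour with a lower call was NCAS_0J00630, at −0.73 (adjusted p = 0.0134). Its call was lost when any 1 of the 4 libraries was left out, at −0.77 to −0.68. NCAS_0J00710, at 0.43, was called with the compared groups alone (adjusted p = 0.023) but not with all groups (adjusted p = 0.248). For CHL1, TFC8 and SYM1 the values were −0.05, −0.18 and 0.06. The upf1 difference with CHX was called lower than that without CHX for 3 of 15 neighbours, all mRNAs, and higher for 0 (limma, interaction term). That share is near the background, since 21.4% of all features were called lower and 0.0133% higher by this term, and 20.4% and 0% of mRNAs.

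In WT CHX against WT all 15 tested neighbours were called higher, with log2 fold changes from 0.80 to 1.77, beside 94.1% higher and 0.146% lower over all features. Under mRNA-ratio scaling 5 were higher and 1, NCAS_0J00630, was lower (−0.39), beside 2656 and 1529 of all 7518 features. After quantile normalization 0 were higher and 1 was lower, beside 1533 and 1691. In upf1 CHX against upf1 14 were called higher, beside 84.4% higher and 0.239% lower over all features. Under mRNA-ratio scaling 1 was higher and 2 were lower, beside 1382 and 1900 of all 7518 features. After quantile normalization 0 were higher and 2 lower, beside 1378 and 1557. In dcr1 upf1 against upf1 limma called 0 of 15, beside 0.333% higher and 0.173% lower over all features, and the values ran from −0.34 to 0.27. These 3 comparisons share libraries with each other and with the choice of RMD6.

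Other genes followed RMD6 closely over the 14 libraries. Their smaller differences in upf1 against WT follow from the choice of RMD6 as the highest there. By Pearson's r of log2(density + 0.02) the most similar mRNAs were PUS2 (0.998), NCAS_0D01620 (0.997), NCAS_0F02550 (0.997), AIM18 (0.997) and NCAS_0F01680 (0.997). In S. cerevisiae PUS2 encodes a mitochondrial pseudouridine synthase and AIM18 a mitochondrial protein. The most similar non-coding features were XUT0848 (0.999) and XUT0654 (0.998). Of 5445 mRNAs 306 had an r above 0.95, and the median r was 0.454. All libraries of a group share their treatment and scaling, so these are descriptions of 5 conditions rather than of 14 unrelated points, and over the 5 group means only 1 of these 5 mRNAs, NCAS_0D01620, was again among the first 5.

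These features were chosen by their correlation over the same libraries, so their levels are a description. NCAS_0D01620 averaged 2.59 in dcr1 upf1, 3.93 in upf1 CHX, 3.14 in upf1, 1.78 in WT CHX and 0.302 in WT. Its log2 fold change was 3.28 in upf1 against WT and 1.13 in upf1 CHX against WT CHX. PUS2 averaged 0.583 in dcr1 upf1, 0.781 in upf1 CHX, 0.700 in upf1, 0.458 in WT CHX and 0.132 in WT, with log2 fold changes of 2.23 and 0.74 in the same comparisons. XUT0848 had 2.82 and 0.94.

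**Figure D3:**
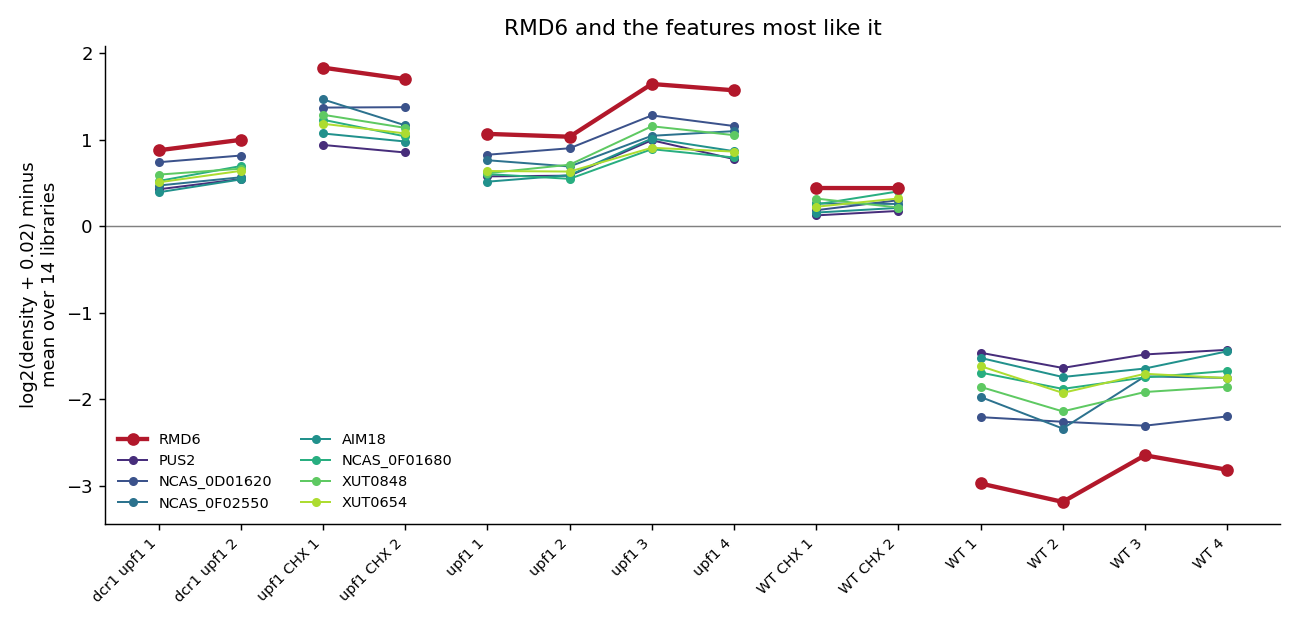
log2(density + 0.02) of RMD6, the 5 mRNAs and the 2 XUTs most like it, each minus its own mean over the 14 libraries, with libraries on the x axis and lines joining libraries of 1 group. All features shown are lowest in the 4 WT libraries and above their mean in the other groups, least so in WT CHX. RMD6, chosen for its rise in upf1 against WT, has the widest range.

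RMD6 was set beside the other genes of meiosis and sporulation, listed by their S. cerevisiae symbols: meiotic regulators, recombination and synapsis, spore membrane and wall, and the other RMD genes. Of 109 symbols besides RMD6, 83 were found and 61 were tested. In upf1 against WT 39 of the 61 were called higher and 1 lower, beside 36.2% and 0.661% of all mRNAs, with a median log2 fold change of 0.71 (0.20 over all mRNAs). With mRNA-ratio scaling these counts became 37 and 9, beside 2250 higher and 1791 lower over all 7518 features. After quantile normalization they became 22 and 18, beside 1575 and 2598. With no filter on low values 44 of 83 were called higher and 1 lower, beside 3136 and 45 of 8341 features. The filter used all groups, so some genes low in WT were tested only because other groups were higher. The other RMD genes were 0 of 4 in both directions in limma, with values between 0.10 and 0.20 (adjusted p from 0.275 to 0.528). RMD9 was called lower under mRNA-ratio scaling (−0.22, adjusted p = 0.0111). After quantile normalization all 4 were called lower: RMD1 at −0.43 (adjusted p = 0.00454), RMD5 at −0.35 (adjusted p = 0.0358), RMD8 at −0.33 (adjusted p = 0.000541) and RMD9 at −0.30 (adjusted p = 0.00129).

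By list, recombination and synapsis genes were called higher in 18 of 20 cases (90.0%) with 0 lower, beside 36.2% higher over all mRNAs. They were led by SPO22 (2.74) and MSH4 (2.42), which act in synapsis and crossing-over, RED1 (2.23), for a protein of the axial elements, and HFM1 (2.17), for a crossover helicase. Among genes of the spore membrane and wall 16 of 25 (64.0%) were higher and 1 lower, led by ISC10 (3.44), SPS100 (2.79), DIT1 (2.75) and SPO71 (1.84). ISC10 is required for sporulation, SPS100 and DIT1 serve the spore wall and SPO71 the prospore membrane in S. cerevisiae. Among meiotic regulators 5 of 12 (41.7%) were higher and 0 lower, a share near the 36.2% of all mRNAs. They were led by AMA1 (1.63), an activator of the meiotic anaphase-promoting complex, and RIM4 (1.03), a translational regulator of meiosis. RMD6 exceeded all 61 in this comparison, on which it was chosen.

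With CHX in both strains 11 of the 61 were called higher and 2 lower, beside 3.54% and 1.21% of all mRNAs, with a median of 0.13 (−0.13 over all mRNAs). RED1 (1.67) and ISC10 (1.63) were above RMD6 (1.32), and SPO22 (1.30) and MSH4 (1.07) followed. With a single library of either CHX group left out, fewer of these genes were called, and fewer of all features as well. In WT CHX against WT all 61 were called higher, beside 98.1% of all mRNAs, with a median of 1.45. There RMD6 (3.34) was exceeded by SPO24 (4.46) alone. Scaling over the mRNAs changed these calls to 34 up and 3 down, next to 2656 up and 1529 down among all 7518 features. Quantile normalization gave 21 and 9, next to 1533 and 1691. In upf1 CHX against upf1 49 (80.3%) were higher and 0 lower, fewer than the 90.8% called higher over all mRNAs. Scaling over the mRNAs left 17 up and 14 down, next to 1382 and 1900 features. Quantile normalization left 11 and 13, next to 1378 and 1557. In dcr1 upf1 against upf1 limma called 0 of 61, beside 0.239% of all mRNAs higher and 0.11% lower. With calls so rare, this 0 does not set the 61 genes apart from other mRNAs.

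**Figure D4:**
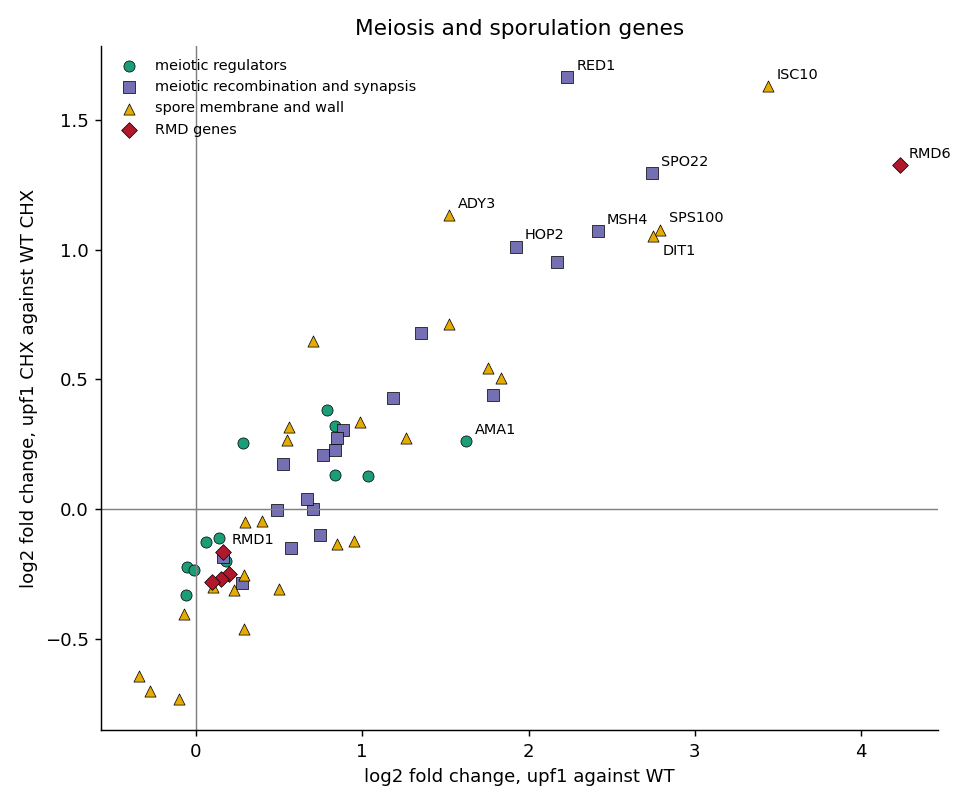
Log2 fold changes of RMD6 and 61 other meiosis and sporulation genes in upf1 against WT (x axis) and upf1 CHX against WT CHX (y axis), 1 symbol per gene and 1 shape per list. RMD6 is farthest right at 4.23 and is at 1.32 on the y axis, below RED1 (1.67) and ISC10 (1.63). On the x axis 37 of these genes are called higher and 9 lower under mRNA-ratio scaling, and 22 and 18 after quantile normalization. Over all 7518 features the counts are 2250 higher and 1791 lower, and 1575 and 2598.

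In level, RMD6 exceeded all 83 other sporulation genes found in dcr1 upf1 and in upf1, and all but 1 of them, SPO24, in upf1 CHX and in WT CHX. In WT 10 of the 83 were above it. The second of these genes in upf1 was ISC10, at a mean density of 2.56 in upf1 and 0.217 in WT. Of 8 genes taken to define a sporulating cell, 7 were low in level in every untreated group. Of these 7, IME1 and SMK1 could not be tested. All the others except DIT2, 4 genes, were called higher in upf1 against WT, beside 36.2% of all mRNAs. IME2, SPO11, SPS1 and DIT2 were below 0.02 in WT and reached the level required for a test only through other groups. Their calls are therefore a description. IME1, the master inducer of meiosis in S. cerevisiae, averaged 0.0103 in upf1 and 0.00321 in WT, and NDT80, for the transcription factor of middle meiosis, 0.0554 in upf1 and 0.0217 in WT. SPO11, for the nuclease of meiotic double-strand breaks, averaged 0.0234 in upf1 and 0.00658 in WT, and SMK1, for a kinase of spore wall assembly, 0.00579 in upf1 and 0.00275 in WT. IME2 averaged 0.0434 in upf1 and 0.0153 in WT, SPS1 0.0234 in upf1 and 0.0128 in WT, and DIT2 0.0137 in upf1 and 0.0073 in WT. The exception in level was DIT1, at 0.610 in upf1 and 0.0748 in WT, also called higher. The log2 fold changes of the 4 low genes called higher were 0.84 for IME2 (limma, adjusted p = 5.89e-05), 0.84 for NDT80 (adjusted p = 0.000901), 0.71 for SPO11 (adjusted p = 0.00035) and 0.40 for SPS1 (adjusted p = 0.034). After quantile normalization NDT80 (0.19), SPO11 (0.17) and SPS1 (−0.19) were not called, nor was SPS1 under mRNA-ratio scaling (0.27). DIT2 was not called, at 0.30 (adjusted p = 0.119), and IME1 and SMK1 were below the level required for a test.

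The MATalpha label was read against mating-type genes. Summed density of 3 genes of alpha cells (STE3, SAG1 and HMLALPHA1) was 3.11 to 3.19 in dcr1 upf1, 3.18 to 5.74 in upf1 and 2.38 to 4.60 in WT. For 5 genes of a cells (STE2, STE6, BAR1, AGA2 and ASG7) it was 0.575 to 0.593, 0.549 to 0.666 and 0.203 to 0.334 in the same groups, below the alpha sum in each. With CHX the a-cell sum was 2.45 to 2.52 in upf1 CHX and 6.68 to 6.90 in WT CHX. The alpha sum was 8.01 to 8.87 in upf1 CHX and 6.54 to 6.65 in WT CHX. In WT CHX alone the a-cell sum was thus above the alpha sum, the reverse of the order in the other groups. AGA2 made up most of the a-cell sum in WT CHX, at 4.51. The part of these shifts in the RMD6 values was not tested.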

How the data were processed

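RMD6, its neighbours and the gene lists were chosen with earlier results of these data known. The values the authors deposited are densities (signal per nucleotide), in which each feature's reads had been divided by its length and by a library factor. This was found from the values, 100% of which gave whole reads within 0.001 reads. The submitters' processing notes list DESeq2, featureCounts 2.0.0, HISAT2 2.2.0 and Trim Galore without stating their use, and neither build nor annotation was named in the sources used. ERCC spike-in RNA, added per the labels' protocols, was not analysed here. After removal of 259 lines that repeat coordinates, 8343 features remained. Symbols came from RefSeq (ASM23734v1), which lists 5588 of the 5599 mRNAs, 5586 with the same coordinates.

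Groups came from the sample titles. With limma 3.58.1 and statmod 1.5.0 (R 4.3.3), log2(density + 0.02) was fitted in 1 model of 5 group means over 14 libraries (trend and robust; 9 residual degrees of freedom, prior degrees of freedom 7.69 at the median), for features with a mean density of at least 0.02 (7518, of which 5446 mRNAs). Fold changes of low features are understated on this scale. Calls used a Benjamini-Hochberg adjusted p under 0.05. Tables, exact tests and plots used Python 3.11.15, pandas 2.3.3, NumPy 2.4.6, SciPy 1.17.1 and matplotlib 3.10.9, and the fit was tested on simulated data. Named genes were RMD6, NAM7, 5 mRNAs on each side, non-coding features overlapping RMD6 or within 5 kb, the 5 mRNAs and 2 non-coding features most correlated with it, the 3 mRNAs next in order, up to 4 called members per list with the largest change, and the RMD genes. SPO24, IME1, NDT80, SPO11, SMK1, IME2, SPS1 and DIT2 are named in addition, SPO24 after its values were seen and the others as defining markers of sporulation. Upf1 and WT libraries with the same number deviated together from their group means (r = 0.365, 0.432, 0.209 and 0.354 for numbers 1 to 4). Libraries with unlike numbers were not compared, so these values do not show that the numbers pair cultures. The main tests used no replicate block, and a block was an alternative. Other alternatives were pseudocounts of 0.005 and 0.1, no filter, mRNA-ratio scaling, quantile normalization, the compared groups alone, replicates 1 and 2 alone, voom on recovered reads and each library left out.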

Additional observations from a re-analysis of the deposited data

Results flagged for a closer look

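In 2 of 46 sets of 4 libraries examined, 1 library stood apart from the other 3 by Dixon's criterion, which chance meets in about 1 in 20 sets. The density of CIP1, a neighbour of RMD6, was 0.0236 in upf1 replicate 1 against 0.00988 to 0.0111 in the other upf1 libraries. The density of RMD1 was 0.176 in upf1 replicate 3 against 0.102 to 0.112 in the other upf1 libraries.

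For 3 of the 19 neighbours and RMD genes tested, the difference of upf1 from WT differed between treated and untreated cells (limma, interaction term, adjusted over all features). The log2 fold change in upf1 CHX against WT CHX minus that in upf1 against WT was −1.17 for NCAS_0J00640 (adjusted p = 0.00143), −0.99 for NCAS_0J00710 (adjusted p = 0.00677) and −0.75 for CHL1 (adjusted p = 0.0262). Over all features 21.4% were called lower with CHX and 0.0133% higher by the same term. All 3 genes were called higher in upf1 against WT and not called in upf1 CHX against WT CHX.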

How the results depend on the processing

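The higher RMD6 value in upf1 CHX against WT CHX kept its direction and its call in all 14 alternatives, at log2 fold changes of 1.26 to 1.57, and that in WT CHX against WT in all 16, at 2.02 to 3.57. WT libraries took part in choosing RMD6, so no alternative makes the second of these comparisons independent of the choice. In dcr1 upf1 against upf1 none of 16 alternatives gave a call (−0.49 to −0.04). In upf1 CHX against upf1 the value turned to −0.54 under mRNA-ratio scaling, −0.17 after quantile normalization and −0.40 under mRNA-ratio scaling with replicates 1 and 2 alone, a setting chosen after seeing the data. It was 0.44 and not called with the compared groups alone (adjusted p = 0.0615), 0.72 with replicates 1 and 2 alone, and 0.34 to 0.54 with single libraries left out. With the replicate block it was 0.66, and the block gave 1.32, 3.57 and −0.16 in the other comparisons in the order above and changed no RMD6 call. It did add XUT0984 (0.48) and MRPS16 (0.28) to the neighbours called in upf1 against WT, and in upf1 CHX against upf1 it ended the calls of CUT0336, CUT0337, CUT0340 and SUT043.

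Mean RMD6 density under mRNA-ratio scaling was 4.06 in dcr1 upf1, 3.17 in upf1 CHX, 1.20 in WT CHX and 0.284 in WT. Of 15 tested neighbours, 4 were called under mRNA-ratio scaling and 3 after quantile normalization in upf1 against WT. Over all 7518 features 4041 and 4173 were called there. Called neighbours numbered 6 and 1 in WT CHX against WT (4185 and 3224 features), and 3 and 2 in upf1 CHX against upf1 (3282 and 2935 features). In upf1 CHX against WT CHX they numbered 2 with the compared groups alone (1900 features) and 2 with replicates 1 and 2 alone (1690 features). Called sporulation genes numbered 37 and 30 of 61 in WT CHX against WT under mRNA-ratio scaling and after quantile normalization. In upf1 CHX against upf1 they numbered 31 and 24, beside the same feature counts. Under mRNA-ratio scaling with replicates 1 and 2 alone, called neighbours numbered 3 in upf1 CHX against WT CHX, 7 in WT CHX against WT and 6 in upf1 CHX against upf1. Called sporulation genes numbered 25 and 37 in the first 2 of these. Over all features 2527, 5068 and 4390 were called in these 3 comparisons. With single libraries left out, called neighbours ranged from 0 to 0 in upf1 CHX against WT CHX and from 8 to 14 in upf1 CHX against upf1, and called sporulation genes from 6 to 9 in upf1 CHX against WT CHX. Called features over all settings ranged from 120 to 2527 in upf1 CHX against WT CHX, from 3224 to 7623 in WT CHX against WT, from 2935 to 6909 in upf1 CHX against upf1 and from 28 to 89 in dcr1 upf1 against upf1. In upf1 against WT they ranged from 2721 to 4615. The cause of these changes was not tested.

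The dcr1 upf1, upf1 CHX and WT CHX groups have 2 libraries each, and a lone library left after omission is assumed to vary like the other groups. CUT0338, CUT0339 and CIP1 were too sparse to test. WT RMD6 rests on 92 to 107 reads per library. Lengths span introns, and the deposited scaling makes fold changes relative to the small nucleolar RNAs.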
